A study of Mus musculus with 2 samples.

Results

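The genes described here are 9 genes of transforming growth factor beta (TGF-beta) signalling in cultured embryonic mouse ureters: the ligands Tgfb1, Tgfb2 and Tgfb3, the receptors Tgfbr1, Tgfbr2 and Tgfbr3, and the response genes Tgfbi, Skil and Pmepa1. They were chosen by name, as all non-control probes that the scanner files assign to one of these symbols. This gave 16 probes of 39429 on the array, of which 15 lay well above background, and all 9 genes were measured among 22311 genes or unnamed features. Each gene is read here by its brightest probe above background. On both arrays Pmepa1 and Tgfbr3 had lower signal in the channel labelled NOGGIN than in the control channel, at mean log2 ratios of -0.53 ± 0.07 and -0.45 ± 0.16 (SD, n = 2). Tgfbi, Tgfbr1 and Tgfb2 also lay below 0 on both arrays, at -0.34 ± 0.30, -0.17 ± 0.06 and -0.17 ± 0.08. Skil lay above 0 on both, at 0.21 ± 0.03, while Tgfb1, Tgfb3 and Tgfbr2 had opposite signs on the 2 arrays. None of the 9 passed an adjusted p of 0.05 in limma, and none reached 1.5-fold in one direction on both arrays. Limma fits a linear model to each feature and shares information on variance across all features.

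TGF-beta ligands are secreted in a latent complex and act once they are released from it. The freed dimer binds TGFBR2, which recruits and phosphorylates TGFBR1. That kinase activates SMAD2 and SMAD3, which enter the nucleus with SMAD4 and regulate genes for matrix proteins, the contractile apparatus and the pathway's own inhibitors. NOGGIN is a secreted antagonist that binds bone morphogenetic proteins (BMPs), not TGF-beta ligands. BMP receptors use other SMADs but share SMAD4 and the inhibitory SMAD7 with the TGF-beta branch. In the ureter, mesenchyme around the epithelium gives rise to smooth muscle and connective tissue, and BMP4 from the mesenchyme is known to act in that differentiation.

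All samples were ureters of wild-type NMRI mouse embryos at E13.75 (days after conception), of mixed sex, kept as explants for 18 h. The treated cultures had 10 µg/ml NOGGIN in the medium and the controls had none. Total RNA (200 ng a sample) was hybridised to 2 arrays in 2 colours, pairing 1 control with 1 treated sample on each. On array 1 the control carried the red dye and the treated sample the green dye, and on array 2 the dyes were exchanged. Each array is 1 replicate, and the labels do not say whether the 2 pairs came from separate litters or how many ureters were pooled. P-values therefore measure only the spread between these samples, which may be technical, and the number of arrays limits the precision. RNA came from whole ureters, so fewer cells of a type and less RNA per cell cannot be told apart.

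Signed values are given as NOGGIN over control, with each channel named by its dye label. Read this way, the BMP target genes Id1, Id2 and Id3 had higher signal in the channel labelled NOGGIN, at log2 ratios of 2.14 ± 0.09 (2.21 and 2.08 on the arrays), 2.59 ± 0.26 (2.41 and 2.77) and 1.45 ± 0.03 (1.43 and 1.47; SD, n = 2; limma adjusted p = 0.0730, 0.0730 and 0.0997). The authors' deposited table gives Id1 signed folds of -4.65 and -4.53 under titles that set the treated sample against the control, which is the opposite direction. A BMP antagonist is known to lower BMP targets, which is the direction of the deposited table read by its titles. The reading by dye labels, used in this text, is the opposite one. The sources used here do not settle which reading is right. With the labels exchanged, every sign of NOGGIN over control, in the opening paragraph and below, would turn and every size would stay. Treated samples and controls are named by the dye labels throughout.

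Between 65.3% and 76.9% of probes were well above background in a channel, and the green channel detected more on both arrays. The urothelial (12 of 12), ureteric mesenchyme (8 of 8) and smooth muscle (9 of 9) marker genes on the lists were all measured, as were nephron and renal progenitor (6 of 6), endothelial (7 of 7), macrophage (7 of 7), nerve (5 of 5) and red blood cell markers (5 of 6). The pairs stood apart in interferon response genes: the mean log2 level of 7 such genes was 8.05 and 8.65 in control 1 and NOGGIN 1, and 9.43 and 12.40 in control 2 and NOGGIN 2. The median log2 ratio of these genes was 0.61 on array 1 and 3.12 on array 2, and the part of this difference in the results below was not tested.

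**Figure D1:**
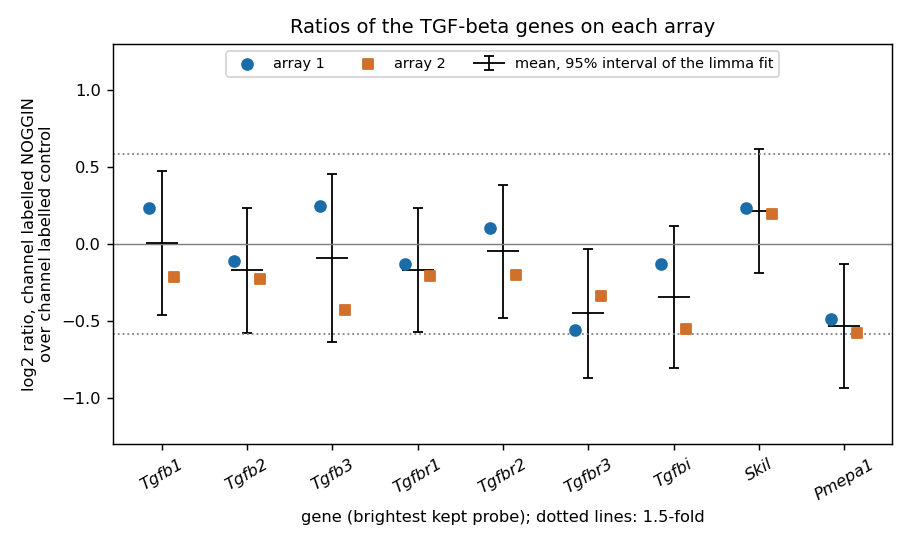
Log2 ratio of the NOGGIN-labelled over the control-labelled channel (y axis) for the brightest kept probe of each of the 9 genes (x axis), with array 1 as circles, array 2 as squares, the mean as a dash and the 95% interval of the limma fit as a bar. The intervals of Pmepa1 (-0.94 to -0.13) and Tgfbr3 (-0.87 to -0.03) lie below 0, those of the other 7 genes include 0, and no gene passes the dotted 1.5-fold lines on both arrays.

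Tgfb1 was read by a probe in the last part of its coding sequence, and the brightest Tgfb2 probe reads the corresponding part of Tgfb2. Both are shown because they are the only probes of different genes in the set with extended similarity. Capitals mark the bases that are identical when the 2 probes are placed against each other without gaps, 28 of 41 aligned bases (68.3%). Both are written 5′ to 3′ in the sense of the transcript. The Tgfb1 probe lies on the plus strand at chr7:26489877-26489936 and the Tgfb2 probe on the minus strand at chr1:188449333-188449392 (mouse build mm9, as the files give them).
Tgfb1: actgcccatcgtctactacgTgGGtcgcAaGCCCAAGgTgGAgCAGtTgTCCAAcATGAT
Tgfb2: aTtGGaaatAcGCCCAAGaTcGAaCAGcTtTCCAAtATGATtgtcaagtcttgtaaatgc
The Tgfb3 probe showed no comparable stretch with either, and its sequence is therefore not shown. Exon and UTR annotation of build mm9 was not used here.

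Among the ligands, Tgfb1 and Tgfb3 had opposite signs on the 2 arrays, and Tgfb2 had a small difference of 1 sign. Levels are given as normalized log2 intensity, which can be compared between samples for 1 probe but not between probes. Tgfb1, the ligand widely made by epithelium, endothelium and blood cells, had levels of 8.39 and 8.95 in controls 1 and 2, and of 8.62 and 8.74 in NOGGIN 1 and 2. The controls enclosed both treated samples. Its log2 ratios were 0.23 and -0.21, with a mean of 0.01 ± 0.31 (SD, n = 2; limma adjusted p = 1, 95% interval -0.46 to 0.48), and the part of these ratios that followed the dye, red over green, was -0.22. Tgfb1 was a dim feature, with background-subtracted signals between 65.6 and 126 as the scanner software gave them, although all 4 spots were well above background in every channel.

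Tgfb2, a ligand with known functions in mesenchyme and urogenital development, had levels of 14.91 and 14.77 in the controls and 14.79 and 14.54 in the treated samples. Each treated sample was lower than its own control, and the groups overlapped. The log2 ratios were -0.11 and -0.23, with a mean of -0.17 ± 0.08 (limma adjusted p = 1, 95% interval -0.58 to 0.24). The spots crossed 0 on both arrays, from -0.30 to 0.32 and from -0.58 to 0.06. A second Tgfb2 probe, 1799 bases further along the transcript, gave 0.19 and -0.45, with a mean of -0.13 ± 0.45. The sign on array 1 thus differed between the 2 probes.

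Tgfb3, the ligand best known from palate fusion and lung development, had levels of 14.74 and 14.81 in the controls and 14.99 and 14.38 in the treated samples. The treated samples lay on either side of the controls. With log2 ratios of 0.25 and -0.43 it had the widest disagreement between arrays of the 9 brightest probes, at a mean of -0.09 ± 0.48 (limma adjusted p = 1, 95% interval -0.64 to 0.45). The single probe lies at chr12:87397804-87397863. After outlier spots were left out, its spots stayed on 1 side of 0 on each array. They ran from 0.22 to 0.29 on array 1 (3 spots) and from -0.73 to -0.27 on array 2 (4 spots).

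**Figure D2:**
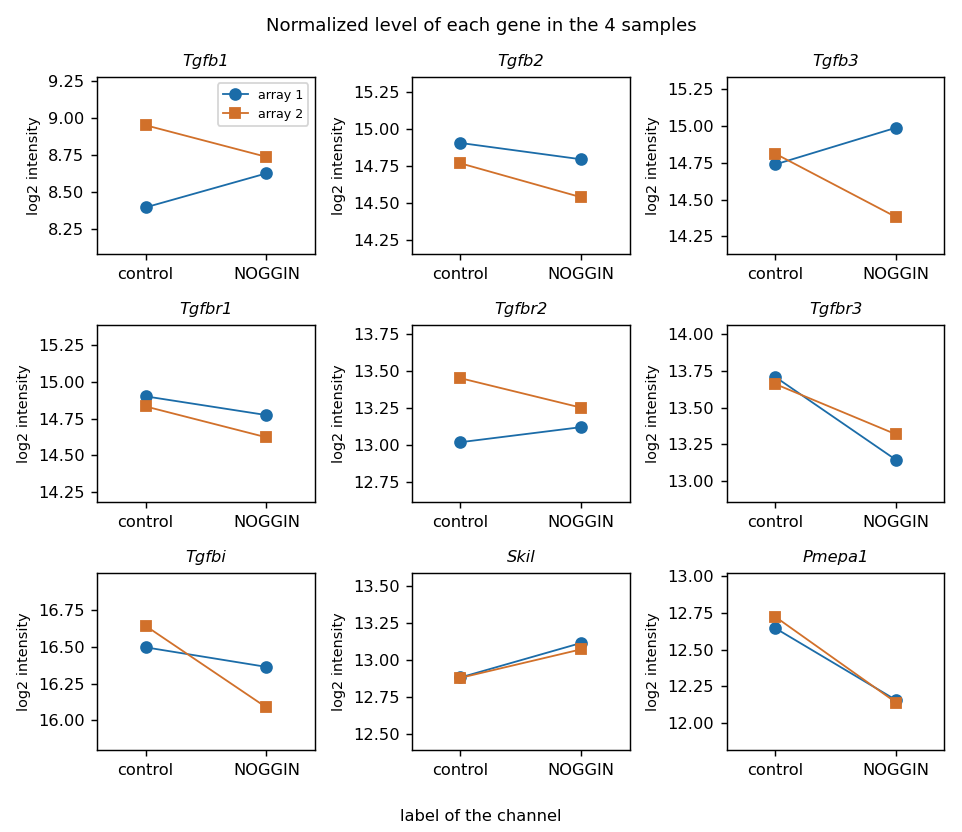
Normalized log2 intensity (y axis) of the brightest kept probe of each gene in the 4 samples, by the label of the channel (x axis), with the samples of array 1 joined by a line between circles and those of array 2 by a line between squares. The lines of Tgfbr3 and Pmepa1 run from about the same control level down on both arrays (13.71 and 13.66 to 13.14 and 13.32; 12.65 and 12.72 to 12.16 and 12.14), while those of Tgfb1, Tgfb3 and Tgfbr2 cross or run in opposite directions.

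Of the receptors, Tgfbr3 had the largest difference. Tgfbr3 (betaglycan) is a co-receptor without kinase activity that presents ligand, TGFB2 above all, to the signalling receptors. Its level was 13.71 and 13.66 in the controls, and 13.14 and 13.32 in the treated samples. Both treated samples lay below both controls. The log2 ratios were -0.56 and -0.34, and the mean of -0.45 ± 0.16 (SD, n = 2) corresponds to 1.37-fold lower in the channel labelled NOGGIN (95% interval -0.87 to -0.03; limma adjusted p = 0.744 over all features). The spots kept for this probe (chr5:107535818-107535877), 4 on array 1 and 3 on array 2, were all below 0, from -0.67 to -0.34 and from -0.45 to -0.25. The authors' deposited table gives this probe signed folds of 1.25 and 1.46, control over NOGGIN by the dye labels.

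Tgfbr1, the kinase that phosphorylates SMAD2 and SMAD3, had levels of 14.90 and 14.83 in the controls and 14.77 and 14.62 in the treated samples by its brightest probe (chr4:47427736-47427795). The groups did not overlap, but the distance between them was small. The log2 ratios were -0.13 and -0.21, with a mean of -0.17 ± 0.06 (limma adjusted p = 1, 95% interval -0.57 to 0.23). Spots lay on both sides of 0 on each array, from -0.52 to 0.23 and from -0.49 to 0.05.

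Tgfbr1 has 3 other probes, and they did not give the same value. A probe of another Tgfbr1 transcript gave -0.10 and -0.61, with a mean of -0.35 ± 0.36. A second probe of that kind was below background in every channel, with 0 of 4 spots detected. The last probe (chr4:47424946-47425005) lies 2790 bases before the brightest one in the same transcript, and gave -0.27 on array 1 and 1.92 on array 2. Its 4 spots lay between 1.81 and 2.15 on array 2 and between -0.41 and -0.17 on array 1, so the disagreement was between arrays and not between spots. Its levels were 9.57 and 9.29 in control 1 and NOGGIN 1, and 8.37 and 10.28 in control 2 and NOGGIN 2. The authors' deposited table holds the same disagreement, with signed folds of 1.29 and -4.19. When all kept probes of the gene were averaged, this probe turned the mean log2 ratio of Tgfbr1 to 0.10.

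Tgfbr2, the receptor that binds the ligand first, had levels of 13.02 and 13.45 in the controls and 13.12 and 13.25 in the treated samples. The controls enclosed the treated samples. The log2 ratios of 0.10 and -0.20 had a mean of -0.05 ± 0.21 (limma adjusted p = 1, 95% interval -0.48 to 0.38). A second, dim Tgfbr2 probe lies 2341 bases before the brightest one. Its place in the coding sequence was not checked against annotation. Like the brightest Tgfbr2 probe and the Tgfb1 probe, it holds an open frame that closes with a stop codon. It is shown with that codon, TAG, in capitals (chr9:115999496-115999555, minus strand, mm9).
Tgfbr2: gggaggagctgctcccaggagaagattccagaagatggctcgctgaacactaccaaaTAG
It gave 0.14 and 0.44, with a mean of 0.29 ± 0.21, so that on array 2 the 2 Tgfbr2 probes had opposite signs. With all kept probes averaged, the log2 ratio of Tgfbr2 was 0.12.

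The response genes Pmepa1 and Tgfbi had lower signal with the NOGGIN label on both arrays, and Skil had higher signal. Pmepa1, a membrane protein induced by TGF-beta that restrains the pathway by sequestering receptor-regulated SMADs, had levels of 12.65 and 12.72 in the controls and 12.16 and 12.14 in the treated samples. The 2 samples of each label were closer to each other than to any sample of the other label. The log2 ratios were -0.49 and -0.58, just short of the 1.5-fold bound of 0.585. The mean of -0.53 ± 0.07 (SD, n = 2) is 1.45-fold lower (95% interval -0.94 to -0.13; limma adjusted p = 0.532 over all features), the largest difference among the 9 genes. The spots kept, 4 on array 1 and 3 on array 2, all lay below 0, from -0.67 to -0.28 and from -0.70 to -0.39.

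A second Pmepa1 probe on chromosome 2 is shifted by 4 bases from the first (chr2:173049970-173050029), with 55 of 56 aligned bases identical, and is therefore a near repeat of the same measurement. It gave -0.19 and -0.68, with a mean of -0.44 ± 0.35. Both probes were below 0 on both arrays, and the size on array 1 differed between them. In the authors' deposited table the first probe has signed folds of 1.32 and 1.73, control over NOGGIN by the dye labels.

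Tgfbi, a secreted matrix protein named for its induction by TGF-beta, had levels of 16.50 and 16.64 in the controls and 16.36 and 16.09 in the treated samples. The groups did not overlap, and most of the difference came from array 2. The log2 ratios of -0.13 and -0.55 had a mean of -0.34 ± 0.30, which is 1.27-fold lower (limma adjusted p = 1, 95% interval -0.80 to 0.12). On array 1 the 4 spots ran from -0.39 to 0.25, so the spots of that array lay on both sides of 0; on array 2 they ran from -0.89 to -0.32.

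Skil (SnoN), a corepressor that binds SMAD complexes and is itself induced by TGF-beta as a feedback inhibitor, went the other way. Its level was 12.88 in both controls, and 13.12 and 13.07 in the treated samples. The log2 ratios of 0.23 and 0.19 differed little between arrays, and the mean of 0.21 ± 0.03 is 1.16-fold higher (limma adjusted p = 1, 95% interval -0.19 to 0.61). Its spots reached slightly below 0 on both arrays, from -0.03 to 0.35 and from -0.009 to 0.57. A second, dim Skil probe lies 3956 bases before the first in the transcript and 4813 bases before it in the genome. An open frame in 60 bases does not by itself show coding sequence. This probe is shown because, unlike the brighter one, it has a reading frame without a stop codon (chr3:31016390-31016449, plus strand, mm9).
Skil: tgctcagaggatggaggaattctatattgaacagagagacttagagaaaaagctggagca
This probe gave -0.07 and 0.36, with a mean of 0.15 ± 0.31, so its sign on array 1 differed from that of the brighter one.

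**Figure D3:**
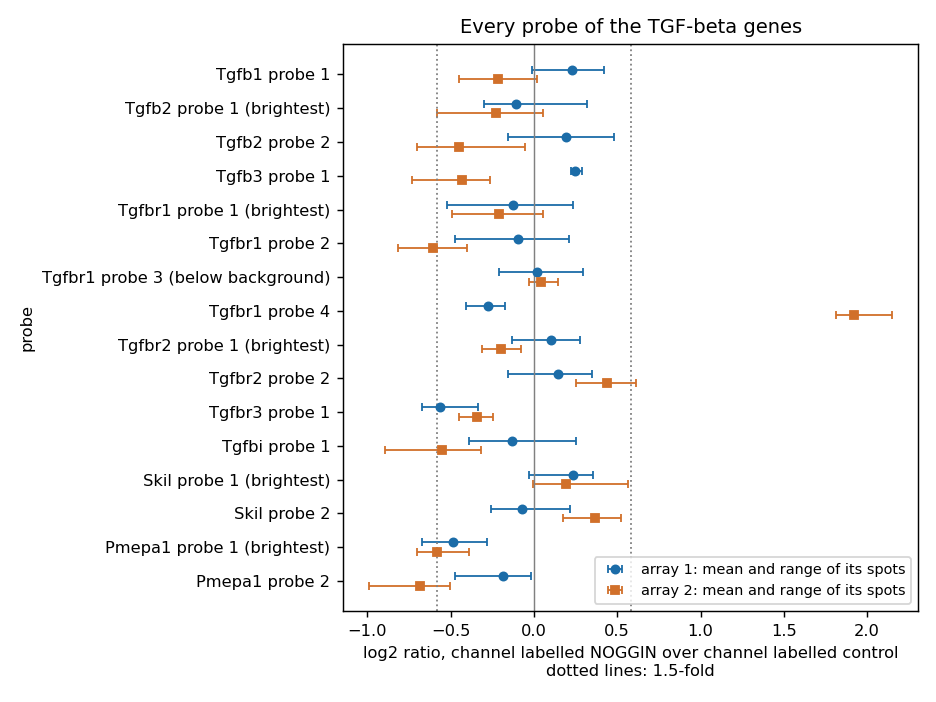
Log2 ratio of the NOGGIN-labelled over the control-labelled channel (x axis) for every probe of the 9 genes (y axis), with the mean of array 1 as circles and of array 2 as squares and bars from the lowest to the highest spot left after outlier spots were removed. Both Pmepa1 probes and the Tgfbr3 probe lie below 0 on both arrays, and Tgfbr1 probe 4 stands apart on array 2 at 1.92; dotted lines mark 1.5-fold.

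Counted over the set by the brightest probe of each gene, 5 of the 9 genes (55.6%) were lower on both arrays, 1 was higher on both and 3 had opposite signs. This count depends on the choice of probe. With all kept probes averaged, Tgfb2 (-0.15 ± 0.27) and Tgfbr1 (0.10 ± 0.38) had opposite signs on the arrays. Tgfbr2 (0.12 ± 0.003) was then higher on both. Over all features 23.3% were lower on both arrays, 20.4% were higher on both and 56.3% had opposite signs. By the 1.5-fold rule 0 of the 9 were lower and 0 higher, beside 1.25% and 0.941% of all features. At an adjusted p under 0.05, limma called 0 of the 9 and 0% of all features, and at an unadjusted p under 0.05 it called 2 of the 9 (Pmepa1 and Tgfbr3), beside 6.04% of all features. Both treated samples lay below both controls for 4 of the 9 (Tgfbr1, Tgfbr3, Tgfbi and Pmepa1), beside 17.9% of all features, and above both controls for 1 (Skil), beside 14.3%. The median log2 ratio of the set was -0.17 (-0.11 on array 1 and -0.23 on array 2), and that of all features was -0.01 (0.02 and -0.05). These counts describe the genes named, which were not drawn at random, and were not tested as a set.

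Promoter sequence of 5 of the 9 genes could be matched in a RefSeq table (assembly GRCm38.p6, 250 bases before to 50 after each start), giving 6 promoters. The search below covered only the 250 bases before each start. SMAD complexes are known to bind short motifs, and 3 were searched on both strands: CAGAC, the SMAD box; GTCTAGAC, a palindromic SMAD-binding element that shares no full match with the SMAD box; and GGCGCC, a GC-rich SMAD motif. CAGAC occurred in 4 of the 6 promoters (66.7%), beside 42.2% of 32851 promoters of the same length. GGCGCC occurred in 2 (33.3%), beside 9.6%, and GTCTAGAC in 0, beside 0.2%. The Tgfbi promoter is shown because it was the only one of the 6 with both CAGAC and GGCGCC. It holds 2 CAGAC boxes, read as GTCTG on the strand printed, and 1 GGCGCC, all in capitals. The 250 bases before the start are given (GRCm38.p6, chr13:56609336-56609585, plus strand, 62.4% G and C).
Tgfbi promoter: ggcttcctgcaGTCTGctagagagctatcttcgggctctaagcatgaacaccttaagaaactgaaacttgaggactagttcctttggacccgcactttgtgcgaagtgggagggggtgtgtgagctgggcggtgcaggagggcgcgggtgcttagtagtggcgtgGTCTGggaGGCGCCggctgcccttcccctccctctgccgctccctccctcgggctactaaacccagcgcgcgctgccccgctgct
Among 23 promoters of 17 further response genes, 11 (47.8%) held CAGAC and 3 (13.0%) GGCGCC. A match is a description of letters and not a binding site.

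The rest of the pathway was described with a list of 71 genes, all measured, in 5 groups by role. By the 1.5-fold rule 5 of the 71 were lower in the channel labelled NOGGIN, 2 were higher and 64 were neither. Over all features 1.25% were lower and 0.941% higher by this rule, and these shares also stand beside the group counts below. An adjusted p under 0.05 in limma was reached by 0 of the 71 and by 0% of all features. In the same fit 16 (22.5%) had an unadjusted p under 0.05, beside 6.04% of all features. The median log2 ratio of the list was -0.08 (-0.07 on array 1 and -0.19 on array 2).

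Genes of ligand latency and activation, which hold the ligand in the matrix or free it, gave 1 lower gene of 14, and 0 higher. Thbs1 (thrombospondin 1), a matrix protein that can release TGF-beta from its latent form, had levels of 15.06 and 15.16 in the controls and 14.42 and 14.56 in the treated samples. Its log2 ratio was -0.62 ± 0.03 (limma adjusted p = 0.393), with -0.65 and -0.60 on the arrays. The median of the group was -0.06. On both arrays 6 genes (42.9%) were lower and 3 (21.4%) higher, and 5 (35.7%) had opposite signs. Over all features these shares were 23.3%, 20.4% and 56.3%.

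Co-receptors and receptor regulators had 0 of 9 genes past the 1.5-fold rule and a median of 0.00. The largest difference was that of Bambi, a pseudoreceptor that blocks receptor complexes. Its levels were 6.88 and 6.69 in the controls and 7.39 and 7.32 in the treated samples, close to background. The log2 ratios of 0.50 and 0.63 had a mean of 0.57 ± 0.09 (limma adjusted p = 0.489). With the processed signals of the scanner software the mean ratio of Bambi was 1.28.

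SMADs and their regulators had 1 higher gene of 12 and 0 lower. Smad7, the inhibitory SMAD that both TGF-beta and BMP signals are known to induce, had levels of 12.36 and 12.30 in the controls and 13.03 and 13.20 in the treated samples. Both treated samples lay above both controls, at a log2 ratio of 0.78 ± 0.16 (limma adjusted p = 0.272). Of the signal transducers, Smad2 had -0.17 and 0.17, with a mean of 0.00 ± 0.24, and Smad4 had 0.12 and -0.16, with a mean of -0.02 ± 0.20. Smad3 had -0.06 and -0.57, with a mean of -0.32 ± 0.36 that came mostly from array 2. These 3 were named after their values were seen. The group's median was -0.03.

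Corepressors and cofactors had 0 of 8 genes past the rule and lay within a narrow range, from -0.15 to 0.06. Ski, the corepressor most closely related to Skil, had the largest difference, at -0.15 ± 0.09 (-0.09 and -0.21; limma adjusted p = 1).

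Response genes had 4 lower genes of 28 and 1 higher by the 1.5-fold rule, beside 1.25% and 0.941% of all features. Their median log2 ratio was -0.40 (-0.28 on array 1 and -0.38 on array 2). Of the 28, 17 (60.7%) were lower on both arrays, 5 (17.9%) higher on both and 6 (21.4%) opposite, beside 23.3%, 20.4% and 56.3% of all features. An unadjusted p under 0.05 in limma was reached by 12 (42.9%), beside 6.04% of all features. Among the lower genes Nuak1, a kinase known as a SMAD target, had levels of 10.72 and 10.43 in the controls and 9.89 and 9.60 in the treated samples. Both treated samples lay below both controls, at a log2 ratio of -0.83 ± 0.01 (adjusted p = 0.217 in limma), with -0.83 and -0.84 on the arrays.

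Of the lower response genes, 2 encode proteins of the contractile apparatus. Tagln, an actin-binding protein of smooth muscle, had -1.14 and -0.81, with a mean of -0.98 ± 0.23 (limma adjusted p = 0.193). Cnn1 (calponin) had -0.92 and -0.69, with a mean of -0.80 ± 0.16 (limma adjusted p = 0.264). Both are also smooth muscle markers, as is Acta2 on the same list, which had -1.39 and -0.18. Among the 9 smooth muscle markers 3 were lower by the 1.5-fold rule (Tagln, Cnn1 and Actg2), 1 was higher (Myocd, with 1.17 and 0.94), and the mean log2 level of the list was 13.11 and 13.05 in the controls and 12.62 and 12.67 in the treated samples. The part of smooth muscle content in the response genes was not tested beyond leaving these genes out. Without Tagln, Acta2 and Cnn1, a step added after the data were seen, 2 of 25 response genes were lower and 1 higher, and the median was -0.32.

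The response list also holds genes of the extracellular matrix, named after their values were seen, and 0 of these passed the 1.5-fold rule. Of the collagens, Col3a1 had -1.05 and -0.56, Col1a1 -0.51 and -0.65, Col1a2 -0.59 and -0.26, and Col4a1 opposite signs at 0.19 and -1.02. The collagen crosslinking enzyme Lox had -1.10 and -0.57, and elastin (Eln) -0.07 and -0.71. Fibronectin (Fn1) had -0.47 and -0.41, and the matricellular protein Ccn2 -0.55 and -0.83. Postn, which encodes periostin, had 0.12 and 0.62. The protease inhibitor Timp3 had 0.49 and 0.21, and Timp1 had -0.16 and 0.005.

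Snai1, a transcription factor that TGF-beta is known to induce in epithelial-mesenchymal transition, was the only response gene that was higher by the rule. Its levels were 11.62 and 12.28 in the controls and 13.36 and 12.95 in the treated samples. The log2 ratios of 1.74 and 0.67 had a mean of 1.20 ± 0.76 (limma adjusted p = 0.335), so the sign was shared and the size was not.

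**Figure D4:**
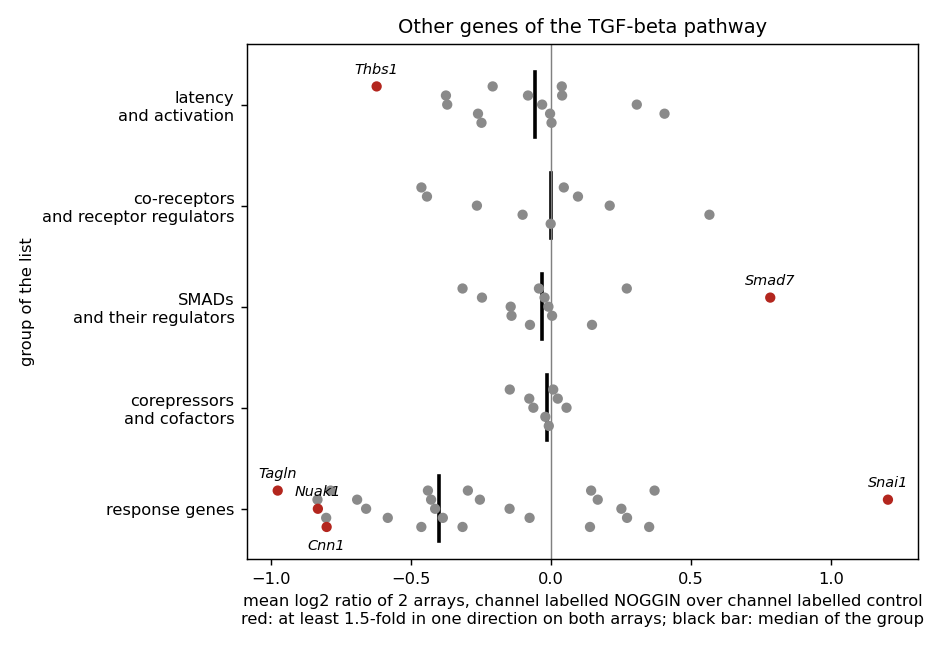
Mean log2 ratio of the 2 arrays, channel labelled NOGGIN over channel labelled control (x axis), for 70 of the 71 pathway genes in 5 groups (y axis), with genes at least 1.5-fold in one direction on both arrays in red and named and the median over all genes of each group as a black bar. The response genes shown spread from -0.98 (Tagln) to 1.20 (Snai1) with a group median of -0.40, while the corepressors and cofactors lie between -0.15 and 0.06.

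The other marker lists are given as values, beside 1.25% of all features lower and 0.941% higher by the 1.5-fold rule. Among 8 ureteric mesenchyme markers Tbx18 (0.88 and 0.65 on the arrays) and Sox9 (1.20 and 1.21) were higher by the 1.5-fold rule and Bmp4 (-0.93 and -1.10) was lower, with a median of -0.11. Among 12 urothelial markers 1 was higher (Upk3b, 0.92 and 0.86) and 0 lower, with a median of 0.12. Among 6 nephron and renal progenitor markers 2 were lower (Wt1, -0.91 and -0.89, and Lhx1, -0.72 and -1.52), and their mean log2 level was 11.21 and 11.17 in the controls and 10.86 and 10.78 in the treated samples. No endothelial, macrophage, nerve or measured red blood cell marker passed the rule, and their medians were 0.17, -0.24, 0.03 and 0.03. Of 7 interferon response genes 4 were higher (Ifit1, Ifit3, Oasl2 and Rtp4). The part of these cell types in the values of the TGF-beta genes was not tested.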

How the data were processed

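Per the file headers, the deposited scanner files hold spot intensity values for a custom 2-colour design, read with Agilent Feature Extraction 10.7.3.1 (submitters' processing notes). They give mean signals with local background medians, and processed signals that the software background-subtracted and dye-normalized. They also give a log10 ratio of red over green, which was used only to find the direction of the authors' deposited table. The deposited 0 or 1 flags mark spots above background, outliers and saturation. A further deposited table holds a signed score per probe. Its values behave as a signed linear fold (median 1 on both arrays, no value between -1 and 1), correlated with red over green at 0.716 and -0.801, which makes it control over NOGGIN if the dye labels hold. Its normalization was not given in the sources used here.

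The mean signals were background-corrected (normexp, offset 50) and loess-normalized within arrays in limma 3.58.1 under R 4.3.3, control spots having weight 0. Outlier spots (3.36% and 3.09%) were left out, no spot was saturated, and the spots left of the 4 of each probe were averaged. On both arrays a kept probe (29638 in all) had most of its spots well above background in 1 channel or both, and the brightest kept probe stands for a gene. Levels per channel were scaled between arrays by Aquantile. Names were updated through RefSeq accessions (GRCm38.p6, 71.8% of probes matched).

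Log2 ratios were fitted with lmFit and eBayes with 1 signed coefficient (1 residual and 4.35 prior degrees of freedom). Two-sided p-values were adjusted over all 22311 features (Benjamini-Hochberg), and the lowest adjusted p was 0.0730. The fit was tested on simulated data. The 1.5-fold rule asks for 1.5-fold in one direction on both arrays. Named genes are all 9 genes of the set, pathway genes past that rule or with an adjusted p under 0.1, the gene with the largest ratio in each pathway group, Id1, Id2 and Id3, and marker genes past the rule; 1 gene that this rule takes is counted in its lists but not reported here, and others are said to be named after their values were seen. The genes, lists, tests and alternatives were chosen with earlier results of these data known. Alternatives covered background, normalization, filters, spots, probe choice, variance model, fold threshold, the authors' values and each array alone. Figures were drawn with matplotlib 3.10.9.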

Additional observations from a re-analysis of the deposited data

How the results depend on the processing

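No gene of the 9 passed the 1.5-fold rule under any alternative run, each array alone included, and none passed an adjusted p of 0.05 in limma (lowest: Pmepa1 0.448 and Tgfbr3 0.508). Over the alternatives Pmepa1 ranged from -0.59 to -0.48, Tgfbr3 from -0.56 to -0.34, Tgfbi from -0.55 to -0.13, Tgfb2 from -0.23 to -0.11 and Skil from 0.17 to 0.23, and the median of the set from -0.23 to -0.09. Of 126 alternative values for the 9 genes, 119 kept their sign and side of the threshold and 7 changed sign: Tgfb1 (-0.032 with median centring, -0.0064 with the authors' values, -0.21 to 0.23 on single arrays), Tgfb3 (-0.43 to 0.25 on single arrays), Tgfbr2 (0.12 with all kept probes averaged, -0.20 to 0.10 on single arrays) and Tgfbr1 (0.10 with all kept probes averaged, where 1 probe differs between arrays). Part of the 119 was fixed in advance. The authors' values of all genes were first turned to the dye-label direction by their correlation with red over green. They could therefore not show the opposite reading by the titles. The variance model and the fold threshold cannot move a log2 ratio, and the filters on dim probes left those of the 9 genes unchanged. Single arrays gave no adjusted p, so for them only the sign could be compared. Of 335 values for 24 other named genes, 0 changed sign and 19 newly passed an adjusted p of 0.05 in limma. The 19 were values of Id1, Id2, Id3, Sox9, Bmp4, Ifit1, Ifit3, Oasl2 and Rtp4, which are not on the pathway list. Most of these 24 were named for passing the 1.5-fold rule on both arrays, so the single arrays had to keep their sign. The count of features past that threshold was 0 in the main setting and 35 without background correction, 100 with both channels required above background, 114 after centring on the median, 22 with outlier spots kept and 141 with a trended, robust variance. The count past the 1.5-fold rule was 488, against 840 with the processed signals, 149 at 2-fold and 961 to 2631 on single arrays. Pathway genes past the rule numbered 7, against 13 with the processed signals, 4 with median centring, 0 at 2-fold and 13 to 18 on single arrays. Lower response genes numbered 4, against 2 without the smooth muscle markers, 8 with the processed signals, 0 at 2-fold and 9 on either single array. Where no construction shows it, the cause was not tested. Each log2 ratio is taken within an array, so the fit is already paired by array. Dim probes such as that of Tgfb1 limit what signal over background can show.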

Other observations

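Some pathway genes had large ratios of opposite sign on the arrays, and their means hide this. Ltbp3, which tethers latent TGF-beta in the matrix, had 0.67 on array 1 and -0.59 on array 2, with a mean of 0.04 ± 0.90 (SD, n = 2). Tgif2, a SMAD corepressor, had -0.41 and 0.26, with a mean of -0.08 ± 0.47. Ltbp4, of the same family, also had opposite signs, at 0.13 and -0.30, while Ltbp1 (0.43 and 0.18) and Ltbp2 (0.21 and 0.60) were above 0 on both arrays. Eng (endoglin), an accessory receptor of endothelium and mesenchyme related to Tgfbr3, was below 0 on both, at -0.23 and -0.66. The cell cycle inhibitors Cdkn1a and Cdkn2b, both known TGF-beta targets, were below 0 on both arrays, Cdkn1a at -0.55 and -0.77 and Cdkn2b at -0.70 and -0.23 (adjusted p = 0.380 and 0.853 in limma). These genes were chosen after their values were seen, and they are given as values.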
